A study of Homo sapiens with 6 samples.

Results

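Retinoids are handled in cells by a small set of carriers, enzymes and nuclear receptors, and 9 of their genes are described here in BT-549 cells with and without NEAT1 silencing: RBP4, DHRS3, CRABP2, STRA6, ALDH1A3, CYP26B1, RARA, RARB and RARG. The genes were chosen by symbol from the 25545 genes of the expression table, with their levels in both groups already known. Their own differences between the groups are therefore described below and not tested. Of the 9 genes, 6 reached a mean of 1 TPM (transcripts counted per length and scaled to a fixed sum per library) over the 6 libraries and entered the fit over 10721 genes. STRA6, CYP26B1 and RARB stayed under that level.

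BT-549 is an established human line of triple-negative breast cancer, grown here in RPMI1640 medium with fetal bovine serum and insulin. The BT-549/CsiRNA cells received a control siRNA and the BT-549/NEAT1siRNA cells an siRNA against NEAT1, the long noncoding RNA that scaffolds nuclear paraspeckles. RNA was isolated 48 h later, with 3 libraries in each group. The sample titles of both groups also carry the prefix tet-, which the sources used here do not explain. The labels state triplicate cultures but not whether each was transfected separately, so the p-values below measure only the spread between these libraries, which may be technical. The sources describe 1 NEAT1 siRNA, so effects of that siRNA on other transcripts cannot be told apart from those of losing NEAT1. No retinoid was added as a treatment in either group.

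In the textbook pathway, RBP4 carries retinol in the circulation and STRA6 takes it up into cells. Retinol is oxidised to retinal, which DHRS3 reduces back to retinol, and retinal dehydrogenases such as ALDH1A3 oxidise it to retinoic acid. CRABP2 delivers retinoic acid to the nuclear receptors RARA, RARB and RARG, which bind DNA as partners of RXR receptors, and CYP26B1 breaks retinoic acid down. DHRS3, CYP26A1 and RARB are known as genes that retinoic acid induces in many cells.

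RAR and RXR pairs bind repeated half-sites, so the promoter windows of the genes were searched for the half-site AGGTCA, its close variant AGTTCA, a further variant GGGTCA and the last variant GGTTCA, on both strands, singly and as direct repeats spaced by 1, 2 or 5 bases. All 9 genes had a window in the RefSeq table (GRCh38.p14, 250 bases before to 50 bases after a start), 22 windows in all. A half-site was found in 9 of these 22 windows, while 38.6% of all 35116 windows held one. A repeat spaced by 1 base was in 0.131% of all windows, a repeat spaced by 2 bases in 0.0399% and a repeat spaced by 5 bases in 0.0883%, and in the 9 genes the search returned 1 repeat, spaced by 5 bases, in RARB. Among the other retinoid genes examined below, CYP26A1 held a repeat of this kind, on the opposite strand. The windows of both genes are printed with the half-sites of the repeat in capitals, followed by the windows of DHRS3, RBP4 and ALDH1A3, the genes with the largest differences on the log2(TPM + 1) scale, at their canonical starts, in which none of the 4 half-sites was found. DHRS3 had 3 windows in the table, of which 2 held a half-site, while the 3 windows of RBP4 and the single window of ALDH1A3 held none. The windows lie at chr3:25428013-25428312 (plus strand, RARB), chr10:93073643-93073942 (plus strand, CYP26A1), chr1:12618161-12618460 (minus strand, DHRS3), chr10:93601186-93601485 (minus strand, RBP4) and chr15:100879581-100879880 (plus strand, ALDH1A3). Each is written 5′ to 3′ on the strand of the gene.
RARB: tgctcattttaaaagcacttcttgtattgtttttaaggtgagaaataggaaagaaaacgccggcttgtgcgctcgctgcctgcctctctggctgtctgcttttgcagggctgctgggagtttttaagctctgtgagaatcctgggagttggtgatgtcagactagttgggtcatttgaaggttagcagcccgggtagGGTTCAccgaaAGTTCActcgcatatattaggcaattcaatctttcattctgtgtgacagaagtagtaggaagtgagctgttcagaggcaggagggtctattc
CYP26A1: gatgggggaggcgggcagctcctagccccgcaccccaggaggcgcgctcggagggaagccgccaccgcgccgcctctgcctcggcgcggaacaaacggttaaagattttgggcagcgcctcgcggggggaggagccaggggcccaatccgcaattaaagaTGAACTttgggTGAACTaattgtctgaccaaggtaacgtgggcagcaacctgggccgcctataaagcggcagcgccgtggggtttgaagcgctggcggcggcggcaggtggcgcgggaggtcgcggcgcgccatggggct
DHRS3: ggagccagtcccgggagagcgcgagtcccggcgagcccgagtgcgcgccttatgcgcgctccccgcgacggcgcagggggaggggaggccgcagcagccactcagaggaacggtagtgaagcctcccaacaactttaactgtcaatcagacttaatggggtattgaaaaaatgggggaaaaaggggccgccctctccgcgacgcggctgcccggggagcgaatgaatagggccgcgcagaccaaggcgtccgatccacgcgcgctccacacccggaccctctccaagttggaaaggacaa
RBP4: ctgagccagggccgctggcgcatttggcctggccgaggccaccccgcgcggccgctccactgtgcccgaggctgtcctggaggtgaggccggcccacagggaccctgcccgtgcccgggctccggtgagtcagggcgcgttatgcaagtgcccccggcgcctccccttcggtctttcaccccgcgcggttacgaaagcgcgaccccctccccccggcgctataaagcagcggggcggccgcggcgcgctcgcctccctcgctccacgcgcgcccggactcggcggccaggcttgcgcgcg
ALDH1A3: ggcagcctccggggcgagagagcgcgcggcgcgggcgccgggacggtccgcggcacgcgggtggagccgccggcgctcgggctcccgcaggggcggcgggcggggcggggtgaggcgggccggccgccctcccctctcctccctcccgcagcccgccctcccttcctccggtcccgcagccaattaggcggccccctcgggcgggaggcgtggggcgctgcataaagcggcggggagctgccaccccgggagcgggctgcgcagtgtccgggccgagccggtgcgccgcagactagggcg
The repeat began 53 bases before the start in RARB and 90 bases before the start in CYP26A1. A match describes letters in the window and does not show that a receptor bound there, and the search says nothing of sequence outside the window.

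The libraries held between 15787433 and 20343099 reads, recovered from the deposited values. NEAT1 stood at 13.4, 7.68 and 10.8 TPM in the CsiRNA libraries and at 4.36, 2.96 and 2.73 TPM in the NEAT1siRNA libraries, without overlap. VIM, FN1, CDH2, ZEB1 and SPARC, markers of mesenchymal breast cancer lines, summed to between 1364 and 1684 TPM. FN1 and CDH2 fell in NEAT1siRNA cells (log2 fold changes of −0.47 and −0.34, limma, adjusted p = 0.00116 and 0.0186) and the other 3 did not pass the test. The part of that difference in the retinoid values was not tested. The epithelial and luminal markers EPCAM, CDH1, ESR1, PGR and GATA3 summed to at most 0.175 TPM, with ESR1 listed at 0 in every library, and 5 blood and endothelial markers summed to at most 0.065 TPM. In the fit, 14.0% of the 10721 genes passed the threshold (limma, adjusted p under 0.05), 4.99% higher and 8.98% lower in NEAT1siRNA cells. The values of the groups did not overlap for 30.3% of the genes, with 11.0% above and 19.3% below in NEAT1siRNA cells. Gene levels also varied with base composition: the correlation across genes of a library's deviation from its group mean with GC content ranged from −0.73 to 0.68.

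RBP4, DHRS3, CRABP2, RARA and RARG had higher values in every NEAT1siRNA library than in any CsiRNA library, as did RARB at few reads, and ALDH1A3 had lower ones. Among all genes tested, 11.0% lay above and 19.3% below in this way, and since the 9 genes were picked with this contrast known, nothing is read from the comparison. In bulk RNA, a change in the share of cells that express a gene and a change in the RNA per cell cannot be told apart.

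**Figure D1:**
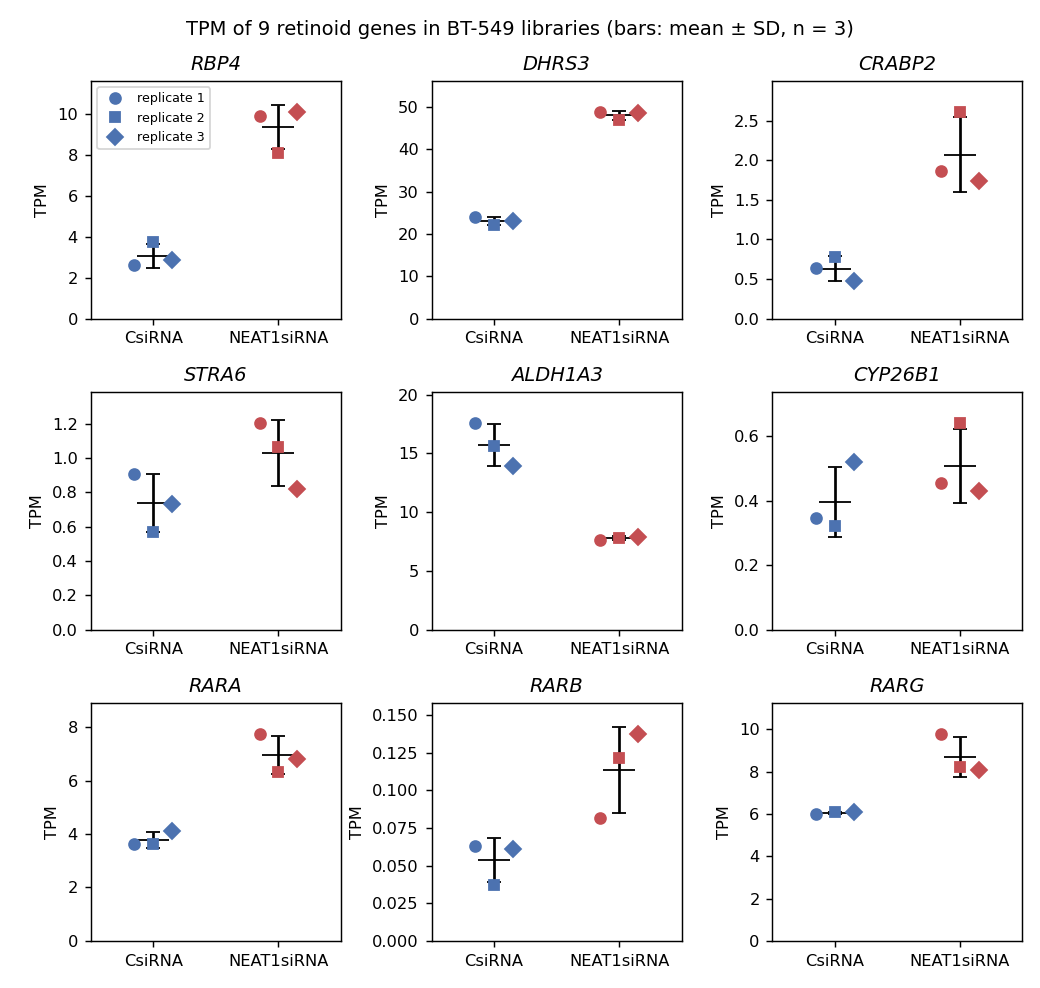
Level in TPM (vertical axis, from 0, its own scale in each panel) of each of the 9 retinoid genes in the 3 CsiRNA and the 3 NEAT1siRNA libraries, with points for libraries and bars for the group mean ± SD. The NEAT1siRNA points of RBP4, DHRS3, CRABP2, RARA, RARB and RARG all lie above the CsiRNA points, those of ALDH1A3 all lie below, and those of STRA6 and CYP26B1 overlap.

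Among the carriers, RBP4, the plasma retinol-binding protein (chromosome 10, 93591687 to 93601744, minus strand), stood at 2.60, 3.72 and 2.88 TPM in CsiRNA cells and at 9.87, 8.09 and 10.1 TPM in NEAT1siRNA cells. The lowest NEAT1siRNA library was above the highest CsiRNA library by more than the spread within either group. The mean was 3.07 ± 0.582 TPM in CsiRNA cells and 9.35 ± 1.09 TPM in NEAT1siRNA cells (SD, n = 3 each), a ratio of 3.05. On the log2(TPM + 1) scale the difference was 1.35 (SE 0.11), which placed RBP4 at rank 2 from the highest of the 10721 genes. The counts behind these values were 49 to 71 reads per library in CsiRNA cells and 173 to 200 in NEAT1siRNA cells. From recovered reads the log2 fold change was 1.65.

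CRABP2, the cytosolic protein that passes retinoic acid to its receptors (chromosome 1, 156699606 to 156705816, minus strand), was a low transcript in control cells at 0.634, 0.783 and 0.471 TPM. In NEAT1siRNA cells it stood at 1.87, 2.61 and 1.73 TPM, and the groups did not overlap. The mean level was 0.630 ± 0.156 TPM against 2.07 ± 0.471 TPM (SD, n = 3 each), a ratio of 3.29. CRABP2 thus differed between the groups by about as large a ratio of TPM as RBP4. The log2 fold change was 0.91 (SE 0.11) on the log2(TPM + 1) scale, which understates differences of low genes, and 1.76 from recovered reads. CRABP2 passed the filter only through the NEAT1siRNA libraries, with a mean of 1.35 TPM over all 6. Its reads numbered 11 to 15 per CsiRNA library and 33 to 56 per NEAT1siRNA library.

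STRA6, the membrane receptor for RBP4-bound retinol (chromosome 15, 74179466 to 74212267, minus strand), stood at 0.908, 0.571 and 0.729 TPM in CsiRNA cells and at 1.20, 1.06 and 0.820 TPM in NEAT1siRNA cells. The lowest NEAT1siRNA library lay within the CsiRNA range, so the groups overlapped. The mean TPM was 0.736 ± 0.169 and 1.03 ± 0.194 (SD, n = 3 each). Its level per length carries more uncertainty than those of the other genes, since STRA6 had 1.96 times as many reads per TPM and base of its canonical transcript as the median gene. The other 8 genes lay between 0.85 and 1.31 on that measure.

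DHRS3, the retinal reductase that turns retinal back into retinol (chromosome 1, 12567910 to 12618210, minus strand), was the most abundant of the 9 transcripts per length. It stood at 24.0, 22.0 and 23.0 TPM in CsiRNA cells and at 48.8, 46.9 and 48.5 TPM in NEAT1siRNA cells. The libraries of each group lay close together, and the groups were far apart. Mean TPM was 23.0 ± 0.985 against 48.1 ± 1.05 (SD, n = 3 each), a ratio of 2.09, and the log2 fold change was 1.03 (SE 0.09) at rank 6 from the highest. The libraries held 890 to 1132 reads of DHRS3 in CsiRNA cells and 1947 to 2122 in NEAT1siRNA cells.

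ALDH1A3, the retinal dehydrogenase that makes retinoic acid (chromosome 15, 100877714 to 100916626, plus strand), lay on the opposite side. It stood at 17.6, 15.6 and 14.0 TPM in CsiRNA cells and at 7.66, 7.82 and 7.93 TPM in NEAT1siRNA cells, with no overlap. The mean of 15.7 ± 1.81 TPM in CsiRNA cells compared with 7.80 ± 0.138 TPM in NEAT1siRNA cells (SD, n = 3 each), which was 49.6% of the control level. The log2 fold change was −0.92 (SE 0.10), at rank 24 from the lowest of the 10721 genes. ALDH1A3 was also nearly the whole of its family here: ALDH1A2 was listed at 0 in every library, and ALDH1A1 had 1 read, in CsiRNA replicate 3.

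CYP26B1, a hydroxylase that clears retinoic acid (chromosome 2, 72129238 to 72147862, minus strand), stood at 0.348, 0.322 and 0.520 TPM in CsiRNA cells and at 0.454, 0.640 and 0.431 TPM in NEAT1siRNA cells. The groups overlapped, and the libraries held 30 to 67 reads of the gene. CYP26B1 carried 80.6% to 92.3% of the summed TPM of the CYP26 genes in each library. CYP26A1, the relative with the repeat in its promoter window, had at most 2 reads in any library.

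DHRS3 and ALDH1A3 act on the same substrate, retinal, and lay on opposite sides. The ratio of DHRS3 TPM to ALDH1A3 TPM was 1.37, 1.41 and 1.65 in CsiRNA cells and 6.37, 5.99 and 6.12 in NEAT1siRNA cells. DHRS3 exceeded ALDH1A3 per length in every library of both groups, and the ratio is a statement about RNA only.

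Of the 3 retinoic acid receptors, RARA (chromosome 17, 40309180 to 40357643, plus strand) stood at 3.61, 3.63 and 4.12 TPM in CsiRNA cells and at 7.73, 6.33 and 6.80 TPM in NEAT1siRNA cells. All NEAT1siRNA values were above all CsiRNA values. The mean TPM was 3.79 ± 0.292 against 6.95 ± 0.715 (SD, n = 3 each), a ratio of 1.84, and the log2 fold change was 0.73 (SE 0.10).

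RARG (chromosome 12, 53210567 to 53232980, minus strand) was the more abundant receptor transcript per length, at 5.99, 6.10 and 6.07 TPM in CsiRNA cells and at 9.77, 8.22 and 8.10 TPM in NEAT1siRNA cells. The CsiRNA libraries were nearly level, and the NEAT1siRNA libraries were higher and more spread. Mean TPM was 6.05 ± 0.0585 and 8.70 ± 0.933 (SD, n = 3 each), a ratio of 1.44, and the log2 fold change was 0.45 (SE 0.10), the smallest of the 5 higher genes.

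RARB, a receptor gene that is itself known as a retinoic acid target (chromosome 3, 24687887 to 25597932, plus strand), was barely detected. It had 5, 3 and 6 reads in CsiRNA cells and 7, 11 and 11 reads in NEAT1siRNA cells, or 0.0629, 0.0372 and 0.0612 TPM against 0.0818, 0.122 and 0.137 TPM. The values did not overlap, but counts this small are close to the limit of detection at this depth.

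The summed TPM of the 3 receptors was 9.66, 9.77 and 10.3 in CsiRNA cells and 17.6, 14.7 and 15.0 in NEAT1siRNA cells. RARA held 37.4%, 37.2% and 40.2% of that sum in CsiRNA cells and 44.0%, 43.1% and 45.2% in NEAT1siRNA cells, and RARG held 62.0%, 62.5% and 59.2% against 55.6%, 56.1% and 53.9%. RARG thus remained the larger share in every library, by less in NEAT1siRNA cells. The ratio of RARA to RARG TPM was 0.603, 0.595 and 0.679 in CsiRNA cells and 0.791, 0.769 and 0.840 in NEAT1siRNA cells. RARB stayed under 1% of the sum.

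**Figure D2:**
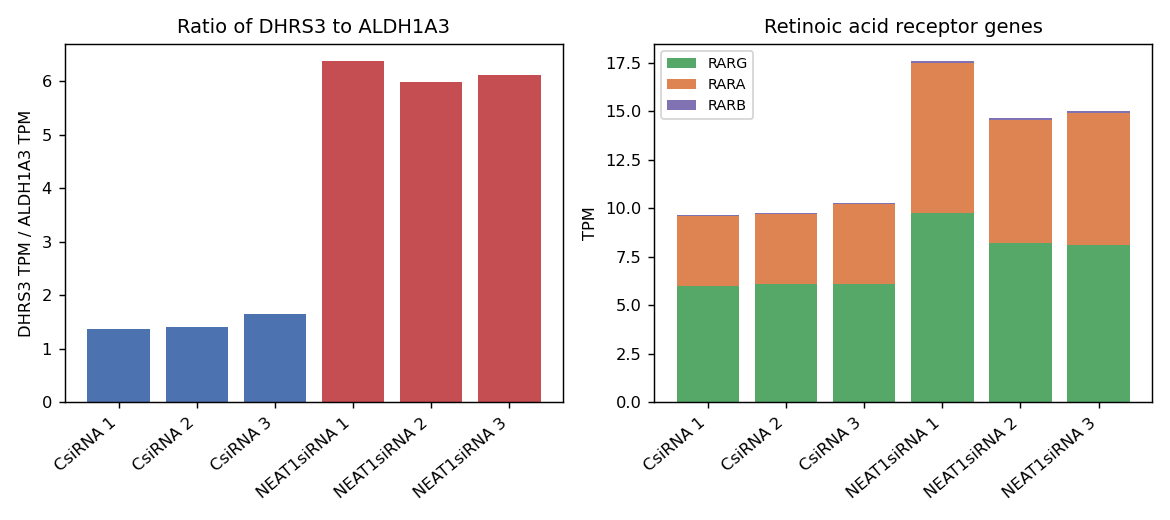
Ratio of DHRS3 to ALDH1A3 TPM in each library (one panel) and the TPM of RARA, RARB and RARG in each library (the other panel), with both vertical axes starting at 0. The ratio lies between 1.37 and 1.65 in CsiRNA libraries and between 5.99 and 6.37 in NEAT1siRNA libraries, and the receptor sum lies between 9.66 and 10.3 TPM and between 14.7 and 17.6 TPM.

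The order of the 9 transcripts per length differed between the groups. In CsiRNA cells it ran, by mean TPM, DHRS3, ALDH1A3, RARG, RARA, RBP4, STRA6, CRABP2, CYP26B1 and RARB. RARA and RBP4 overlapped in range there, as did STRA6 with CRABP2 and CRABP2 with CYP26B1, so these neighbours were not separated beyond their spread. In NEAT1siRNA cells RBP4 came second to DHRS3 and overlapped with RARG, while ALDH1A3 followed RARG and overlapped with RARA. CRABP2, STRA6, CYP26B1 and RARB followed in that order without overlap. The place of STRA6 in either order is uncertain, since it had 1.96 times as many reads per TPM and base as the median gene.

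RBP4 and DHRS3 varied together over the 6 libraries, as any pair of genes that differ between the groups would, with a Pearson r of 0.968 on the log2(TPM + 1) scale. The genes with the pattern most like RBP4 among those tested were GABARAPL1 (r = 0.991), FAM171B (r = 0.991) and the noncoding RNA LINC01224 (r = 0.989). Those most like DHRS3 were STMN1 (r = 0.999), PLCD1 (r = 0.998) and BCL7C (r = 0.996). GABARAPL1 encodes an autophagy protein of the ATG8 family, STMN1 the microtubule regulator stathmin and PLCD1 a phospholipase C. These correlations are over 6 points that share the group difference and are given as a description.

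**Figure D3:**
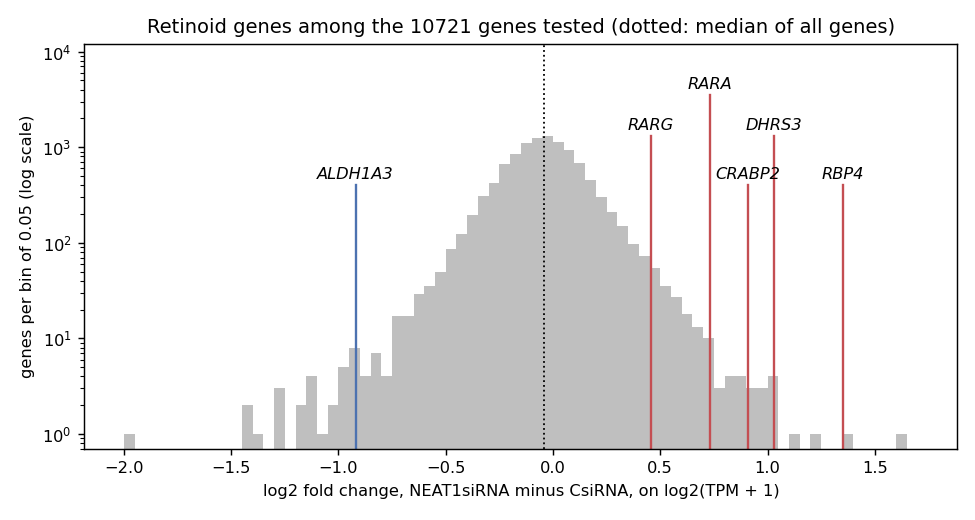
Number of genes (vertical axis, log scale) at each log2 fold change between NEAT1siRNA and CsiRNA cells on the log2(TPM + 1) scale (horizontal axis) for the 10721 genes tested, with vertical lines at 6 retinoid genes. The 5 higher genes lie between 0.45 and 1.35 and ALDH1A3 at −0.92, and the dotted line marks the median of all genes at −0.04.

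GC content moved with the libraries, so each gene was set beside genes of like GC content. The 6 genes fell in GC deciles of 1041 to 1043 genes, whose median log2 fold changes lay between −0.08 and −0.02. Relative to the CsiRNA mean, those deciles' medians stayed between −0.14 and 0.08 in every library. RBP4, DHRS3, CRABP2, RARA and RARG were at least 0.37 above the CsiRNA mean in every NEAT1siRNA library, and ALDH1A3 at least 0.90 below it. The genes were picked with this contrast known, so values far from a decile median were fixed in advance. The part of GC content in their values was not tested. After a correction of each library for a trend with GC content and length, the log2 fold changes were 1.39 for RBP4, 1.09 for DHRS3, 0.95 for CRABP2, 0.78 for RARA, 0.51 for RARG and −0.83 for ALDH1A3.

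The rest of the pathway was taken from 4 lists of 58 other genes, chosen for textbook function. Of these, 23 passed the filter on TPM and 35 did not, 11 of which were listed at 0 in every library. RXRA, NR2F1 and NR2F2 rose and DGAT1 fell, and the other 19 did not pass the test (limma, adjusted over all 10721 genes). That is 13.0% of the 23 genes higher and 4.35% lower, beside 4.99% and 8.98% of all genes. The median log2 fold change of the 23 genes was 0.09, with 14 of 23 above 0, beside −0.04 for all genes. The count of higher genes moved with the setting. It was 7 of 23 after each library was centred on its median, where 1158 of all 10721 genes were higher. Without CsiRNA replicate 2 it was 1 of 23, where 401 of all 10721 genes were higher.

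The receptor partners and cofactors held all 3 of the higher genes, among 14 tested, at a median of 0.11 on the log2 scale. NR2F1 (COUP-TFI), an orphan receptor that binds many of the same DNA repeats, stood at 4.21, 3.46 and 4.06 TPM in CsiRNA cells and at 5.85, 6.55 and 5.94 TPM in NEAT1siRNA cells. Its log2 fold change was 0.54 (SE 0.10, limma, adjusted p = 0.000433), and it passed the threshold in all 17 alternatives tried. NR2F2 (COUP-TFII), its close relative, rose from 41.4 ± 1.73 to 51.3 ± 4.83 TPM (SD, n = 3 each), by 0.30 on the log2 scale (SE 0.09, limma, adjusted p = 0.0309). The call for NR2F2 was lost without CsiRNA replicate 1 (limma, adjusted p = 0.0660), without CsiRNA replicate 2 (0.134) and without NEAT1siRNA replicate 2 (0.0666).

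RXRA, the heterodimer partner of the retinoic acid receptors, rose from 2.17 ± 0.300 to 2.97 ± 0.252 TPM (SD, n = 3 each), by 0.33 on the log2 scale (SE 0.10, limma, adjusted p = 0.0290). Its values did not overlap between the groups, with 1.95 to 2.51 TPM in CsiRNA cells and 2.69 to 3.15 TPM in NEAT1siRNA cells. The call was lost without CsiRNA replicate 2 (limma, adjusted p = 0.112), CsiRNA replicate 3 (0.0852) or NEAT1siRNA replicate 1 (0.0742). RXRB and RDH13 are not compared by level, because their reads per TPM were 6.51 and 14.1 times the value their canonical transcript length gives for the median gene. The corepressor NCOR1 and the coactivators NCOA1, NCOA2, NCOA3, EP300 and CREBBP did not pass the test in the reported fit. NCOA1 passed as higher with voom on recovered reads (limma, adjusted p = 0.0035) and with the GC and length trend removed (0.0016). It also passed with rescaling, median centring or quantile normalization. NCOA2 and NCOA3 passed as higher with the GC and length trend removed (limma, adjusted p = 0.022 and 0.026).

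Among the binding, uptake and storage genes, 3 of 15 were tested and DGAT1 fell. DGAT1, an acyltransferase that can esterify retinol besides making triglycerides, went from 6.36 ± 0.436 to 4.67 ± 0.254 TPM (SD, n = 3 each), and its log2 fold change was −0.38 (SE 0.09, limma, adjusted p = 0.00804). Without CsiRNA replicate 1 its adjusted p (limma) was 0.0542. FABP5, the carrier that takes retinoic acid to PPARD, was the most abundant gene of the list at 51.9 ± 1.69 and 47.7 ± 3.90 TPM and did not pass the test (log2 fold change −0.12, limma, adjusted p = 0.407). The ratio of CRABP2 to FABP5 TPM was 0.0118, 0.0152 and 0.0093 in CsiRNA cells and 0.0390, 0.0507 and 0.0397 in NEAT1siRNA cells. CRABP1, the other cellular retinoic acid carrier, was listed at 0 in every library.

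None of the 5 tested oxidoreductases of 22 passed the threshold. RDH11, a retinal reductase, was the most abundant at 27.5 ± 0.749 and 25.3 ± 4.38 TPM (SD, n = 3 each, log2 fold change −0.13, limma, adjusted p = 0.452). Without NEAT1siRNA replicate 2 RDH11 passed as lower, where 1590 of all 10721 genes were lower. RDH10, which oxidises retinol to retinal and so opposes DHRS3, stood at 18.1, 15.5 and 13.6 TPM in CsiRNA cells and 17.0, 23.4 and 17.9 TPM in NEAT1siRNA cells. Its groups overlapped, and its log2 fold change of 0.28 did not pass the test (limma, adjusted p = 0.0972). RDH10 passed with voom on recovered reads (limma, adjusted p = 0.0138), with the GC and length trend removed (0.0140), with median centring or quantile normalization, and without NEAT1siRNA replicate 1. Of the 6 genes of retinoic acid synthesis and breakdown, CYP27C1, a retinol desaturase, was the gene tested, at 3.63 ± 0.398 and 4.47 ± 0.362 TPM (log2 fold change 0.24, limma, adjusted p = 0.104). CYP27C1 passed with voom (limma, adjusted p = 0.00592), with the trend removed (0.00186), and with rescaling, median centring or quantile normalization.

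**Figure D4:**
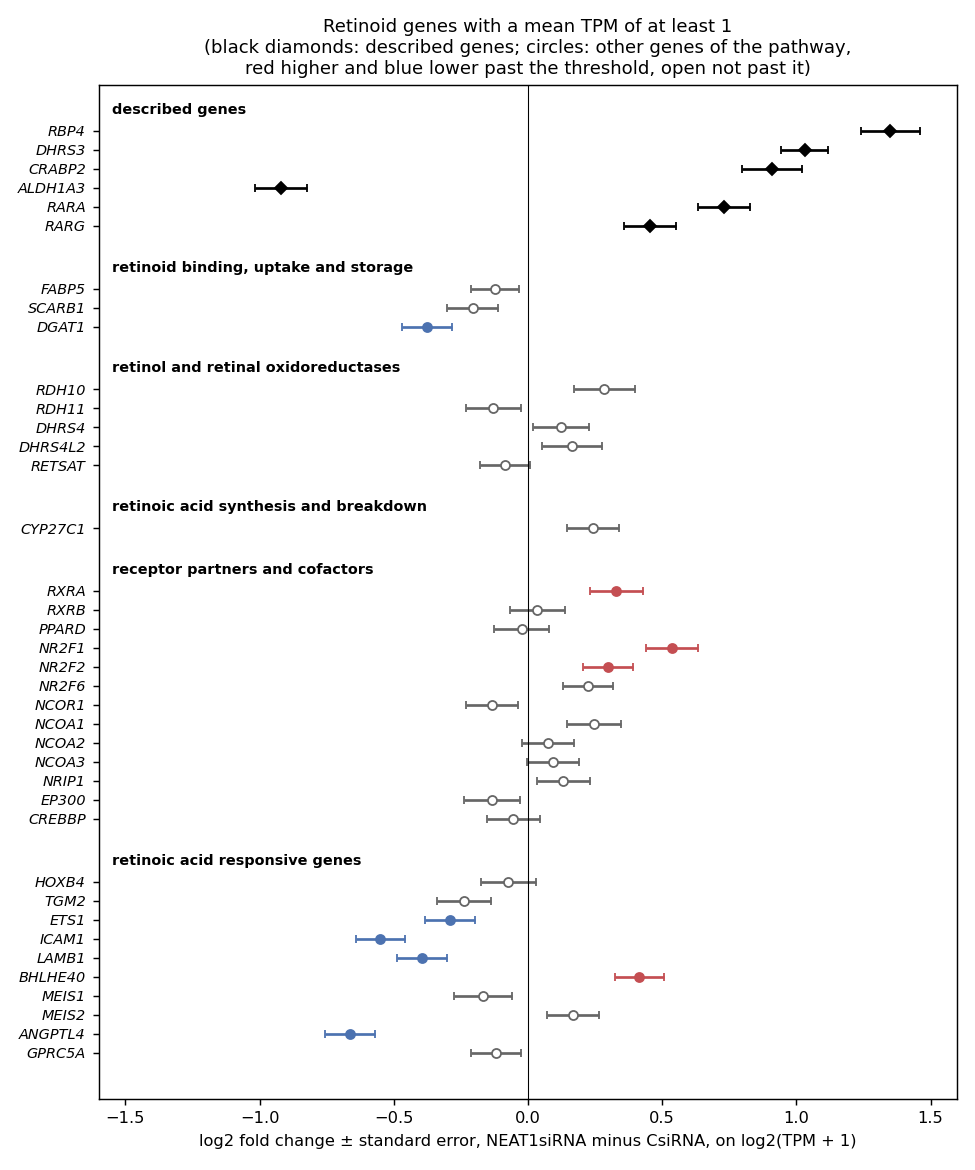
Log2 fold change ± SE of the retinoid genes drawn, all at or over a mean of 1 TPM (horizontal axis, NEAT1siRNA minus CsiRNA on log2(TPM + 1)), grouped by list, with black diamonds for the 6 described genes and circles for the other genes, filled where they passed the test. The 6 described genes lie beyond 0.45 in either direction, while the other pathway genes drawn lie between −0.38 and 0.54 and the retinoic acid responsive genes between −0.66 and 0.41.

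Genes known to be induced by retinoic acid were examined as a separate list of 26, of which 10 were tested and 4 were listed at 0 in every library. BHLHE40 rose, while ETS1, ICAM1, LAMB1 and ANGPTL4 fell, and 5 did not pass the test. That is 10% of the 10 genes higher and 40% lower, beside 4.99% and 8.98% of all genes. The median log2 fold change of the 10 was −0.20, with 2 of 10 above 0, beside −0.04 for all genes. Many of these genes also answer to other signals, as ICAM1 does to NF-κB and ANGPTL4 to PPAR receptors and hypoxia. The part of retinoic acid or of any other signal in these values was not tested.

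ANGPTL4, an inhibitor of lipoprotein lipase, stood at 6.05, 5.52 and 5.53 TPM in CsiRNA cells and at 3.20, 3.05 and 3.44 TPM in NEAT1siRNA cells, with a log2 fold change of −0.66 (SE 0.09, limma, adjusted p = 2.78e-05). ICAM1, an adhesion molecule, fell from 15.1 ± 0.373 to 9.97 ± 0.296 TPM (SD, n = 3 each, log2 fold change −0.55, limma, adjusted p = 0.000148). BHLHE40, a circadian repressor also known as Stra13, rose from 11.4 ± 0.249 to 15.6 ± 0.640 TPM (log2 fold change 0.41, limma, adjusted p = 0.00275). These 3 calls held in each alternative that gave a value.

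LAMB1, a laminin chain, fell from 38.1 ± 2.97 to 28.7 ± 1.90 TPM (SD, n = 3 each, log2 fold change −0.40, limma, adjusted p = 0.00499), and its adjusted p without CsiRNA replicate 1 was 0.0556 (limma). ETS1, a transcription factor, fell from 48.9 ± 3.33 to 39.8 ± 3.56 TPM (log2 fold change −0.29, limma, adjusted p = 0.0391). The ETS1 call was lost without CsiRNA replicate 1 (limma, adjusted p = 0.206), CsiRNA replicate 2 (0.0962), NEAT1siRNA replicate 1 (0.0729) or NEAT1siRNA replicate 3 (0.215). GPRC5A, a retinoic acid induced receptor with high TPM among the uncalled genes of the list, stood at 22.9 ± 1.62 and 21.0 ± 1.44 TPM. The count of lower genes in the list fell to 2 without CsiRNA replicate 1.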

How the data were processed

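RNA of BT-549 cells (RNeasy Plus Mini Kit) was sequenced from TruSeq Stranded mRNA libraries, 3 CsiRNA and 3 NEAT1siRNA. Per the submitters' processing notes and the study's methods, the authors used STAR, DESeq2 and GRCh38. Deposited were the authors' TPM per gene and library, and a table of comparisons with a mean normalized count (signal over all libraries) beside fold changes and p-values, which were not used. Reads were recovered from the deposited TPM and mean normalized count. Within 0.05 of a whole number lay 99.8% of values under 5 reads and 12.9% of those of 500 or more, so read numbers are rounded and approximate at high counts, and are given for depth, for reads per TPM and in 1 alternative.

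The 10721 genes whose mean TPM reached 1 were fitted with limma 3.58.1 (R 4.3.3; lmFit, eBayes with trend) on log2(TPM + 1), two-sided, with Benjamini-Hochberg adjustment over all genes and a threshold of 0.05. Fold changes on this scale understate those of low genes. The fit was tested on simulated data. In sets 1 to 5 it recovered 98.8% of the larger planted changes and 44.4% of the smaller ones, with 7.8% of calls false. The simulated libraries carried no trend with GC content, unlike the real ones, so these rates do not give the error in the real libraries. In another set, a planted change of 1 dominant short noncoding RNA shifted all other TPM values and made 93.3% of calls false. An exact permutation test of 3 against 3 libraries cannot go below p = 0.10, so none was used. In these libraries 4 such RNAs (RN7SK, RN7SL1, RN7SL2, RPPH1) took 64.4% to 67.7% of TPM in CsiRNA cells and 64.9% to 68.1% in NEAT1siRNA cells, and 1 alternative left them out. Positions and GC content came from GENCODE 44 (22278 symbols matched, 783 by older symbols and 2484 unmatched), and promoter windows from RefSeq on GRCh38.p14.

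The genes, lists and tests were chosen with earlier results of these data known. Named were the 9 genes, NEAT1, every list gene past the threshold, the most abundant gene of each list, and the 3 genes most like RBP4 and DHRS3 in pattern. The cell type markers and some other list genes were also named outside this rule, among them RDH10, GPRC5A, MEIS2 and the cofactors. Alternatives were 0.1 as pseudocount, other filters (none, or a mean TPM of 5), centring, rescaling, quantile normalization, a GC and length trend, voom, a replicate block and each library left out. The deviations of same-numbered libraries correlated at r = −0.03, 0.25 and −0.11, and those of differently numbered libraries at r from −0.40 to 0.40. Values of some list genes are not reported here, though the counts include them.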

Additional observations from a re-analysis of the deposited data

How the results depend on the processing

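None of the 9 genes, and none of the list genes that passed the test, changed direction in an alternative that tested it. PPARD, RETSAT and CREBBP, which did not pass, went from −0.02, −0.08 and −0.06 on the log2 scale to 0.04, 0.01 and 0.07 with the trend removed. The number of genes that passed the threshold was 1498 (535 higher, 963 lower). It was 505 (242 higher, 263 lower) with no filter, 2466 (1186 higher, 1280 lower) with voom, 3468 (1704 higher, 1764 lower) with the GC and length trend removed, 2191 (1082 higher, 1109 lower) with quantile normalization, 2112 (1158 higher, 954 lower) with median centring, 2059 (940 higher, 1119 lower) after rescaling without the 4 short noncoding RNAs, and 759 to 2083 when 1 library was left out, lowest without CsiRNA replicate 1 and highest without NEAT1siRNA replicate 2. Of the other pathway genes, 3 rose in the reported fit, 10 with the trend removed, 8 with voom, 7 with rescaling, median centring or quantile normalization, 2 with no filter and 1 to 3 without 1 library, while 1 fell, 0 with no filter and 0 to 2 without 1 library. Of the retinoic acid responsive genes, 1 rose, and 2 with the trend removed, rescaling, centring, quantile normalization or voom, while 4 fell, 2 with no filter and 2 to 4 without 1 library. With a mean TPM of at least 5, 1032 of 7237 genes passed (357 higher, 675 lower). In that setting 2 pathway genes rose and 1 fell of 15 tested, and 1 responsive gene rose and 3 fell of 6 tested. Elsewhere the pathway counts are of 23 genes tested, 26 with rescaling and 47 with no filter. The responsive counts there are of 10 genes tested, 12 with rescaling and 22 with no filter. All genes tested there numbered 10721, but 10424 with the trend removed, 12252 with rescaling and 18531 with no filter. The counts over all genes moved in the same settings, so nothing about the lists is read from these shifts. The cause of the shifts was not tested. With no filter, 18531 genes shared the adjustment and DGAT1, RXRA, NR2F2, ETS1 and LAMB1 lost their calls.

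The replicate numbers did not pair the libraries by the correlation of their deviations. With a replicate block 1640 genes passed (579 higher, 1061 lower), and no call of a retinoid gene changed. With the block and the trend removed together, 3394 of 10424 passed (1685 higher, 1709 lower), with 10 of 23 pathway and 2 of 10 responsive genes higher. RARB, CYP26A1, CRABP2 and CYP26B1 rest on few reads per library, which limits the precision of their levels.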
